A study of Mus musculus with 2 samples.

Results

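The genes described here are the ligands, receptors, modulators and target genes of the WNT pathway in mouse neural stem cells. They were chosen by gene symbol alone, as the WNT and frizzled families, the co-receptors Lrp5, Lrp6, Ror1 and Ror2, the secreted and intracellular modulators and the TCF/LEF transcription factors, with 1 frizzled gene left out. The choice found 52 of the 15953 genes of the deposited table. Of these 52 genes, 44 reached 1 read per 1000000 reads counted (CPM) in at least 1 library, 39 reached it in both, and 8 stayed below it. RNA was measured in 1 library from cells labelled Hikeshi cKO (conditional knockout) and in 1 library from cells labelled wild type, both in suspension culture. Hikeshi carries HSP70 chaperones into the nucleus, and the study asks about proliferation and differentiation of neural stem cells that lack it. The sources used here do not give the driver of the deletion, the deleted exons, or the age and number of the animals.

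In the canonical pathway a lipid-modified WNT protein joins a frizzled receptor to LRP5 or LRP6, Dishevelled is recruited, and the AXIN and APC complex that destroys beta-catenin is held back. Beta-catenin then enters the nucleus and switches TCF/LEF factors to activation of target genes, several of which encode inhibitors of the pathway itself. In the embryonic forebrain the pathway is known for sustaining progenitor division, and in the oligodendrocyte lineage for delaying the maturation of precursors.

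With 1 library per genotype there were no replicates, no test between genotypes was possible, and the differences below are between these 2 libraries. Folds are ratios of CPM with a 95% counting interval (exact conditional binomial), which covers counting error only. A gene was counted as higher or lower when it lay at least 1.5-fold apart after 1 CPM was added to both values. Levels of different genes are compared in deposited TPM, which is scaled by transcript length. The libraries held 18912683 reads (cKO) and 18839079 reads (wild type), and "in cKO" and "in wild type" below stand for the libraries so labelled. Hikeshi itself had 33.8 CPM in cKO against 38.1 in wild type, so the genotype rests on the labels and not on the counts of this gene. The libraries also differed in Y-linked reads, with 1265 reads of Eif2s3y in the cKO-labelled library against 0 in the wild-type-labelled library, so the sex of the cells and the genotype cannot be told apart.

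Markers of other states of the lineage differed between the libraries too. Their counts stand beside 4.22% higher and 10.2% lower over all genes kept. All 9 oligodendrocyte lineage markers kept were lower in the cKO-labelled library, and their list (10 genes) summed to 87.0 TPM in cKO against 737 in wild type. Its defining markers Sox10, Pdgfra and Mbp were at 0 in neither library. All 6 astrocyte markers were lower, with a sum of 378 TPM in cKO against 999 in wild type. Of 6 neuronal markers 2 were lower, 4 within 1.5-fold and 0 higher, with 192 TPM in cKO against 243 in wild type in sum. Most of this sum was Map2, with 147 TPM in cKO against 172 in wild type. The 2 lower markers were Snap25 and Dcx, and Dcx had 80 reads in cKO against 824 in wild type (10.3-fold lower, 8.21 to 13.2). Of 7 stem and radial glia markers 1 was higher and 3 lower. Vim was higher (4877 TPM in cKO against 2891 in wild type), and Fabp7 (4597 TPM in cKO against 7039 in wild type), Slc1a3 and Prom1 were lower. Sox2, within 1.5-fold, had 304 TPM in cKO against 305 in wild type. Of 4 ventral telencephalon markers kept 3 were lower (10.4 TPM in cKO against 19.7 in wild type for the list). Of 3 genes kept from the dorsal telencephalon and hem list, Emx2 was higher, and Lhx2 and Dmrta2 were within 1.5-fold. That list summed to 108 TPM in cKO against 83.2 in wild type. Its genes Lmx1a and Lhx5 were absent from the deposited table, so the hem is not covered. Endothelial markers summed to 1.25 TPM in cKO against 0.69 in wild type, pericyte and fibroblast markers to 1.43 TPM in cKO against 2.49 in wild type, microglia markers to 0.16 TPM in cKO against 0.24 in wild type, and ependymal and choroid plexus markers to 7.63 TPM in cKO against 8.43 in wild type. The microglia markers Cx3cr1 and Csf1r had 0 reads in the cKO-labelled library against 1 read each in the wild-type-labelled library. In such bulk RNA fewer cells of a type and less RNA per cell cannot be told apart. The part of these markers in the differences below was not tested.

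Of the 44 WNT genes kept, 8 were higher and 8 lower in the cKO-labelled library. Over all 12618 genes kept, 4.22% were higher and 10.2% lower by the same measure, against 18.2% of the WNT genes in each direction. The median log2 difference of the WNT genes kept was 0.04, beside -0.02 for all genes kept, so the set as a whole lay near the centre and its members spread to both sides. Since a gene can pass the filter through its higher library alone, the genes that pass in both are given as well. Among the 39 WNT genes at 1 CPM or more in both libraries, 7 were higher and 6 lower, beside 3.84% and 8.44% of the 12054 genes of the table at that level. At a limit of 2-fold on the same scale 5 WNT genes were higher and 3 lower, beside 1.25% and 3.85% of all genes kept. The genes that were higher at 1.5-fold were Wnt2, Wnt4, Fzd5, Fzd10, Rnf43, Nkd1, Axin2 and Lef1. The genes that were lower were Porcn, Fzd6, Fzd7, Sfrp1, Sfrp2, Dkk3, Tcf7l1 and Tcf7l2. Of these 16 genes, Rnf43, Porcn, Fzd6, Tcf7l1 and Tcf7l2 overlap annotated noncoding genes, whose reads were not analysed here and which could not be set apart without a known strand setting.

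**Figure D1:**
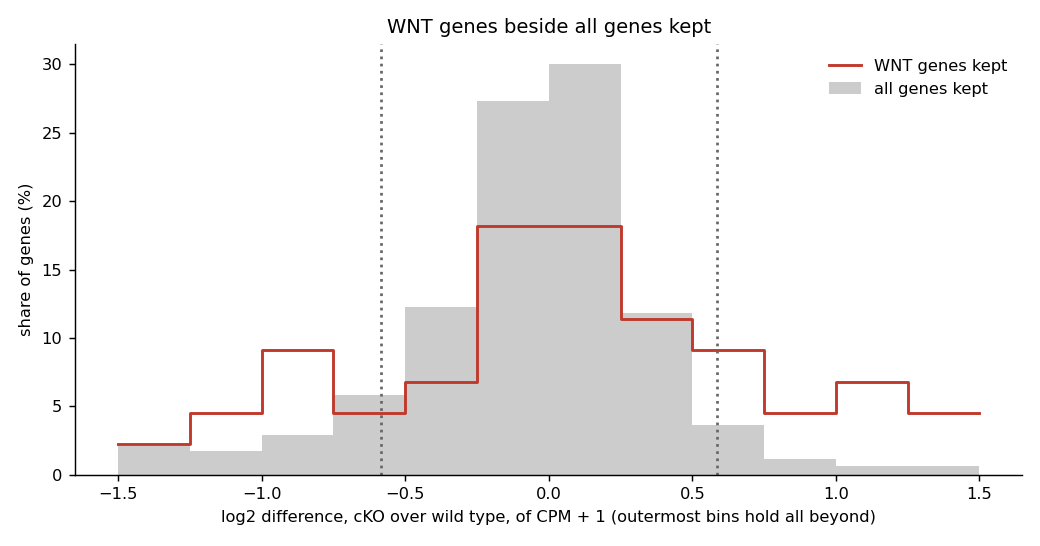
Share of genes (percent) by log2 difference of CPM + 1, cKO-labelled library over wild-type-labelled library, for all 12618 genes kept (grey bars) and the 44 WNT genes kept (red line), with dotted lines at 1.5-fold. The WNT genes are fewer near 0 and more frequent beyond 1.5-fold in both directions, and each outermost bin holds all genes beyond it.

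The promoters of 4 of these genes are shown because they are the classical target Axin2, the feedback gene Nkd1 and a pair of DNA-binding factors of the pathway that differed in opposite directions, Lef1 and Tcf7l2. The difference of Lef1 rests on few reads, 33 in cKO against 2 in wild type. Each sequence is the 250 bases before a transcription start in the RefSeq promoter table (GRCm38.p6), written 5′ to 3′ on the gene's strand, and 0 exon bases of that gene in GENCODE M21 fall in it. Capitals mark the core of the TCF/LEF binding motif, CTTTG or CAAAG.
Axin2 (chr11:108920099-108920348, plus strand): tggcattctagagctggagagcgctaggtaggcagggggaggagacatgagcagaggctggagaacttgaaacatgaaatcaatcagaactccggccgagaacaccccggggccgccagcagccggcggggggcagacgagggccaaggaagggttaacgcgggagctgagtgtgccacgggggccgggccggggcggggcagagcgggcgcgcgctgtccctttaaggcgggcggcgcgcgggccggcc
Nkd1 (chr8:88527383-88527632, plus strand): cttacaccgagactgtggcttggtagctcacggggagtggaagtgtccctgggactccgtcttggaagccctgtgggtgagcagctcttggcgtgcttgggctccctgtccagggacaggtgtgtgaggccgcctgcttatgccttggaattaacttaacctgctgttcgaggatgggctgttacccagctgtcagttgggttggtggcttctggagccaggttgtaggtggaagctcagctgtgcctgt
Lef1 (chr3:131110047-131110296, plus strand): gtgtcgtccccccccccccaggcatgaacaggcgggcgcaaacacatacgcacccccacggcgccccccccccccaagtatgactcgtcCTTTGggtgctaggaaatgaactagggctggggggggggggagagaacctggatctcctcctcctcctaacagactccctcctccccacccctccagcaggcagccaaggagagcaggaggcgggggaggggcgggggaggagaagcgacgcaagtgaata
Tcf7l2 (chr19:55741560-55741809, plus strand): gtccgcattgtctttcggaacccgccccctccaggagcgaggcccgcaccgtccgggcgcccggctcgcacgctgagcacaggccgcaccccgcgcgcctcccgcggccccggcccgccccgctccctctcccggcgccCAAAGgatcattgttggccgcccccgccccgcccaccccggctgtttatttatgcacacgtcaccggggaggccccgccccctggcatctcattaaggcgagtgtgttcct
The core stood 161 bases before the start in Lef1 and 111 bases before it in Tcf7l2, and these letters were not in the Axin2 and Nkd1 windows. Sequence outside the promoter windows was not searched, so this absence holds for these 250 bases only. For Axin2 and Nkd1 RefSeq also annotates sequence of the gene further upstream, from 108917828 on chromosome 11 and from 88521342 on chromosome 8, so these windows lie inside the annotated gene. The end of the Tcf7l2 window, from 55741797 on chromosome 19, also lies inside the RefSeq gene. Lef1 has 4 starts in the table and Tcf7l2 has 2, of which the most upstream is shown. The windows of Axin2 and Tcf7l2 held 24 and 30 CpG sites and those of Nkd1 and Lef1 6 and 11. The median was 6 over all promoters and 17 over the promoters of the WNT genes.

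The promoter table held 45 windows for 35 of the 52 WNT genes. The 5-letter core, on either strand, was present in 20 of the 45 windows (44.4%) and in 48.6% of all 32851 windows. The longer motif CTTTGAA or CTTTGAT, with its reverse forms TTCAAAG and ATCAAAG, contains the core and was present in 2 of the 45 (4.44%) and in 7.48% of all windows. Those windows belonged to the ligand genes Wnt5b, within 1.5-fold, and Wnt11, below the filter. None of the 12 windows of the 8 higher genes and none of the 5 windows found for 4 of the lower genes held the longer motif.

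Among the ligands, 2 of 8 kept were higher in the cKO-labelled library and 0 lower, beside 4.22% and 10.2% of all genes kept. The ligands summed to 131 TPM in the cKO-labelled library against 120.01 TPM in the wild-type-labelled library. Wnt7b and Wnt7a, the ligands best known from forebrain progenitors, made up most of that in each library, 76.0% of the ligand TPM in cKO and 83.0% in wild type. Wnt7b (chromosome 15, 85535437 to 85581821) had 2544 reads or 69.6 TPM in the cKO-labelled library against 2490 reads or 67.9 TPM in the wild-type-labelled library. Wnt7a (chromosome 6, 91363981 to 91411353) had 998 reads in cKO against 1045 in wild type, or 30.2 TPM in cKO against 31.7 in wild type. The ratios of both had counting intervals that include 1 (Wnt7b 1.02-fold higher, 0.963 to 1.08; Wnt7a 1.05-fold lower, 0.963 to 1.15).

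Wnt2 (chromosome 6, 17985474 to 18032772), a ligand of the canonical branch, was the ligand with the largest difference among those kept. It had 255 reads (10.2 TPM) in the cKO-labelled library against 91 reads (3.62 TPM) in the wild-type-labelled library, and was 2.79-fold higher (2.19 to 3.59). It thus held 7.75% of the ligand TPM in the cKO-labelled library against 3.02% in the other. Wnt4 was a scarce ligand, with 46 reads in cKO against 23 in wild type, and was 1.99-fold higher (1.18 to 3.44). Wnt5a, the main ligand of the branch that works without beta-catenin, had 612 reads in cKO against 421 in wild type (10.7 TPM in cKO against 7.49 in wild type) and stayed just inside 1.5-fold at 1.45-fold higher (1.28 to 1.64). Its relative Wnt5b had 158 reads in cKO against 144 in wild type. Wnt5b overlaps the gene Fbxl14, and since the strand setting is unknown its count may hold reads of that gene.

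The other ligands were near the limit of detection. Wnt9a had 31 reads in the cKO-labelled library against 21 in the wild-type-labelled library, and Wnt2b had 12 in cKO against 21 in wild type. Below 1 CPM in both libraries, reads in cKO numbered 17 for Wnt9b, 9 for Wnt3, 4 for Wnt11, 3 for Wnt6 and 1 for Wnt10b, and in wild type 4 for Wnt9b, 17 for Wnt3 and 1 each for Wnt11, Wnt6 and Wnt10b. Wnt3 and Wnt9b are overlapping neighbours on chromosome 11, so the split of their reads is uncertain. Wnt8b had 0 reads in cKO against 2 in wild type and Wnt16 1 in cKO against 0 in wild type, both under the floor of 3 reads. At this depth differences in these 7 ligands below the filter were not detectable except for Wnt9b, whose ratio of 4.23 had an interval of 1.38 to 17.3.

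The enzymes and carriers that prepare WNT proteins differed in unlike directions. Porcn (chromosome X, 8193846 to 8206548), which attaches the lipid that WNT proteins need for secretion and receptor binding, had 239 reads (13.02 TPM) in the cKO-labelled library against 431 reads (23.9 TPM) in the wild-type-labelled library, and was 1.81-fold lower (1.54 to 2.13). Porcn is X-linked, and the libraries differ in Y-linked reads, as given above. Wls, the carrier that takes the lipid-bearing protein to the cell surface, had 664 reads in cKO against 456 in wild type (20.1 TPM in cKO against 13.3 in wild type) and was 1.45-fold higher (1.29 to 1.64), just short of the limit. Wls was the more abundant of the pair in the cKO-labelled library and Porcn in the wild-type-labelled library. Notum, a secreted enzyme that removes the lipid and is itself a WNT target, had 26 reads in cKO against 12 in wild type, a ratio of 2.16 (1.05 to 4.695), but lay within 1.5-fold once 1 CPM was added. It passed the filter through the cKO-labelled library alone (1.37 CPM in cKO against 0.64 in wild type).

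**Figure D2:**
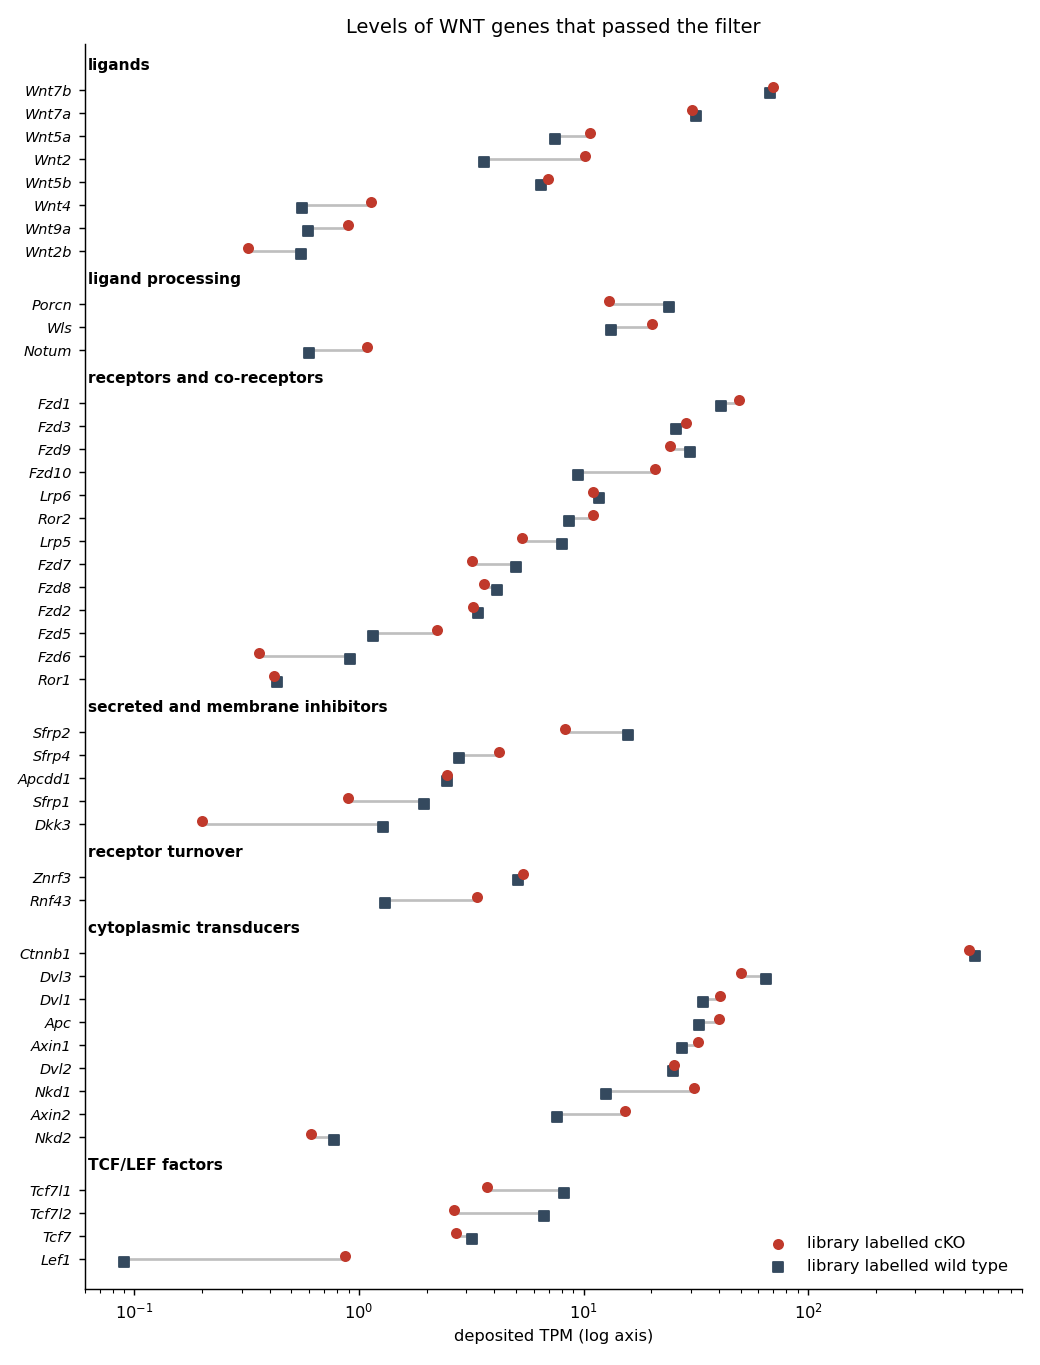
Deposited TPM (log axis) of the 44 WNT genes kept, in the cKO-labelled library (red circles) and the wild-type-labelled library (dark squares), grouped by role. Ctnnb1 lies far above all other genes, the points of Wnt7b, Wnt7a, Lrp6, Dvl2 and Apcdd1 nearly coincide, and those of Wnt2, Fzd10, Nkd1, Axin2, Porcn, Sfrp2, Tcf7l1, Tcf7l2 and Lef1 are apart.

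Of 13 receptor and co-receptor genes, all of them kept, 2 were higher and 2 lower in the cKO-labelled library. These counts stand beside 4.22% higher and 10.2% lower over all genes kept. The 9 frizzled genes summed to 135 TPM in the cKO-labelled library against 120.2 TPM in the wild-type-labelled library. Fzd1, Fzd3, Fzd9 and Fzd10 carried 90.7% of that sum in cKO and 87.9% in wild type. Fzd1 (49.0 TPM in cKO against 40.8 in wild type) was the highest in both libraries. Fzd3 (28.5 TPM in cKO against 25.8 in wild type) stood above Fzd9 (24.2 TPM in cKO against 29.6 in wild type) in the cKO-labelled library and below it in the wild-type-labelled library. These 3 genes were within 1.5-fold.

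Fzd10 (chromosome 5, 128601106 to 128604093), a receptor of canonical ligands, had 648 reads (20.8 TPM) in the cKO-labelled library against 294 reads (9.44 TPM) in the wild-type-labelled library. It was 2.196-fold higher (1.91 to 2.53) and held 15.4% of the frizzled TPM in the cKO-labelled library against 7.85% in the other. Fzd5 had 169 reads in cKO against 89 in wild type and was 1.89-fold higher (1.45 to 2.47). In the opposite direction Fzd7 had 167 reads in cKO against 261 in wild type and was 1.57-fold lower (1.29 to 1.92), and Fzd6 had 16 reads in cKO against 40 in wild type and was 2.51-fold lower (1.37 to 4.801). Fzd6 passed the filter through the wild-type-labelled library alone (0.85 CPM in cKO against 2.12 in wild type). Fzd2 (124 reads in cKO against 130 in wild type) and Fzd8 (127 reads in cKO against 145 in wild type) had intervals that include 1.

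The co-receptors that canonical ligands share with frizzleds were not alike. Lrp6 had 1164 reads in the cKO-labelled library against 1223 in the wild-type-labelled library (11.1 TPM in cKO against 11.7 in wild type), with a ratio whose interval includes 1. Lrp5 had 300 reads in cKO against 452 in wild type and was 1.51-fold lower (1.304 to 1.76), just inside the limit on the scale with 1 CPM added (log2 difference -0.57). Ror2, a receptor of Wnt5a, had 469 reads in cKO against 367 in wild type, and Ror1 27 in cKO against 25 in wild type.

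**Figure D3:**
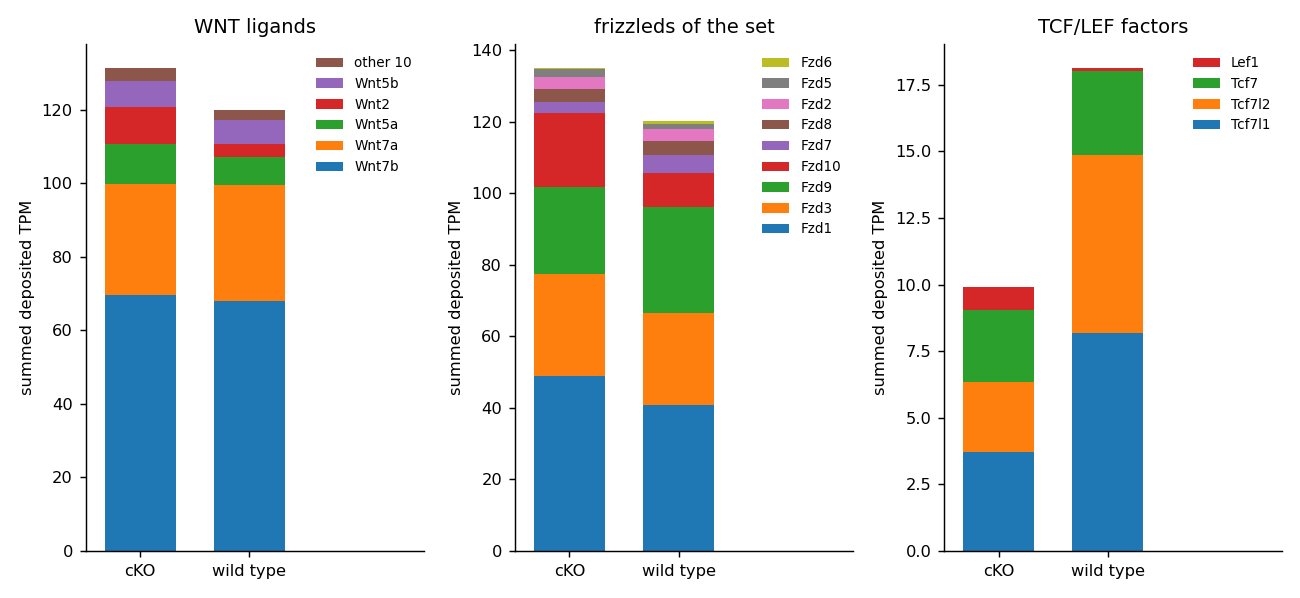
Summed deposited TPM of the WNT ligands, of the frizzleds of the set and of the TCF/LEF factors, stacked by gene, in the cKO-labelled library (left bar) and the wild-type-labelled library (right bar). The ligand and frizzled sums are close between the libraries while Wnt2 and Fzd10 take larger parts in the cKO-labelled library, and the TCF/LEF sum is 9.92 TPM in cKO against 18.1 in wild type.

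The group of inhibitors outside the cell has Dkk3 placed in it by family name. Of its 5 kept members 3 were lower in the cKO-labelled library and 0 higher, beside 10.2% and 4.22% of all genes kept. Its genes summed to 16.6 TPM in cKO against 25.1 in wild type. Sfrp2 (chromosome 3, 83765750 to 83774314), a secreted decoy that binds WNT proteins, was the most abundant of them. It had 163 reads (8.25 TPM) in the cKO-labelled library against 311 reads (15.8 TPM) in the wild-type-labelled library and was 1.92-fold lower (1.58 to 2.33). Sfrp1, a decoy of the same family, had 42 reads in cKO against 92 in wild type (0.89 TPM in cKO against 1.95 in wild type) and was 2.199-fold lower (1.51 to 3.25). Dkk3, a divergent member of the Dickkopf family, was grouped here by family name, and its action on WNT signalling was not tested. It passed the filter through the wild-type-labelled library alone (0.37 CPM in cKO against 2.39 in wild type) and was not kept at 5 CPM. Dkk3 had 7 reads in cKO against 45 in wild type and was 6.45-fold lower (2.89 to 16.96). Sfrp4 stood apart from this direction with 71 reads in cKO against 47 in wild type (1.505-fold higher, 1.03 to 2.22), within the limit on the scale used. Apcdd1, a membrane protein that inhibits at the level of ligand and co-receptor, had 89 reads in each library, and Sfrp5, below the filter, had 11 in cKO against 16 in wild type.

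Inside the cell the genes of the core machinery lay within 1.5-fold, while 2 inducible inhibitors, Axin2 and Nkd1, were higher in the cKO-labelled library. Ctnnb1 (chromosome 9, 120933400 to 120960507), which encodes beta-catenin, had 19653 reads (521 TPM) in the cKO-labelled library against 20768 reads (551 TPM) in the wild-type-labelled library, 1.06-fold lower (1.04 to 1.08). Its part of the TPM of the 9 cytoplasmic genes was 68.9% in cKO and 72.9% in wild type. Apc and Axin1, scaffolds of the destruction complex, were 1.22-fold (1.17 to 1.27) and 1.19-fold (1.09 to 1.29) higher. Of the Dishevelled genes, which relay the signal from the receptor, Dvl1 was 1.18-fold higher (1.096 to 1.28), Dvl2 had 781 reads in cKO against 774 in wild type, and Dvl3, the most abundant, was 1.27-fold lower (1.21 to 1.34). Their sum was 116 TPM in cKO against 124 in wild type.

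Axin2 (chromosome 11, 108917828 to 108950783), a scaffold of the destruction complex that the pathway itself induces, had 703 reads (15.2 TPM) in the cKO-labelled library against 350 reads (7.58 TPM) in the wild-type-labelled library, and was 2.001-fold higher (1.76 to 2.28). Its constitutive counterpart Axin1 was the more abundant of the pair in both libraries, at 32.5 TPM in cKO against 27.5 in wild type. Nkd1 (chromosome 8, 88521342 to 88594887), an inducible protein that binds Dishevelled, had 1030 reads in cKO against 424 in wild type (31.1 TPM in cKO against 12.6 in wild type) and was 2.42-fold higher (2.16 to 2.72). Nkd2, its relative, had 26 reads in cKO against 33 in wild type and an interval that includes 1. Rnf43 (chromosome 11, 87663087 to 87735539), a ubiquitin ligase that removes frizzleds from the cell surface, had 141 reads in cKO against 60 in wild type (3.35 TPM in cKO against 1.3 in wild type) and was 2.34-fold higher (1.72 to 3.22). Znrf3, the other ligase of that kind and the more abundant one, had 424 reads in cKO against 399 in wild type, with a ratio of 1.06 (0.921 to 1.22).

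Axin2, Nkd1, Nkd2, Rnf43, Znrf3, Notum, Apcdd1 and Lef1 are all known as genes that the pathway induces, most of them as its own inhibitors. This grouping was made after the values were seen, so no count or sum is read from it. Axin2, Nkd1, Rnf43 and Lef1 were higher in the cKO-labelled library, Lef1 on 33 reads in cKO against 2 in wild type. Znrf3, Nkd2 and Apcdd1 were nearly level or had an interval that includes 1. Notum had a ratio of 2.16 (1.05 to 4.695) but was within 1.5-fold once 1 CPM was added. Fzd7 and Tcf7, which are also described as genes the pathway induces, had log2 differences of -0.60 and -0.17.

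**Figure D4:**
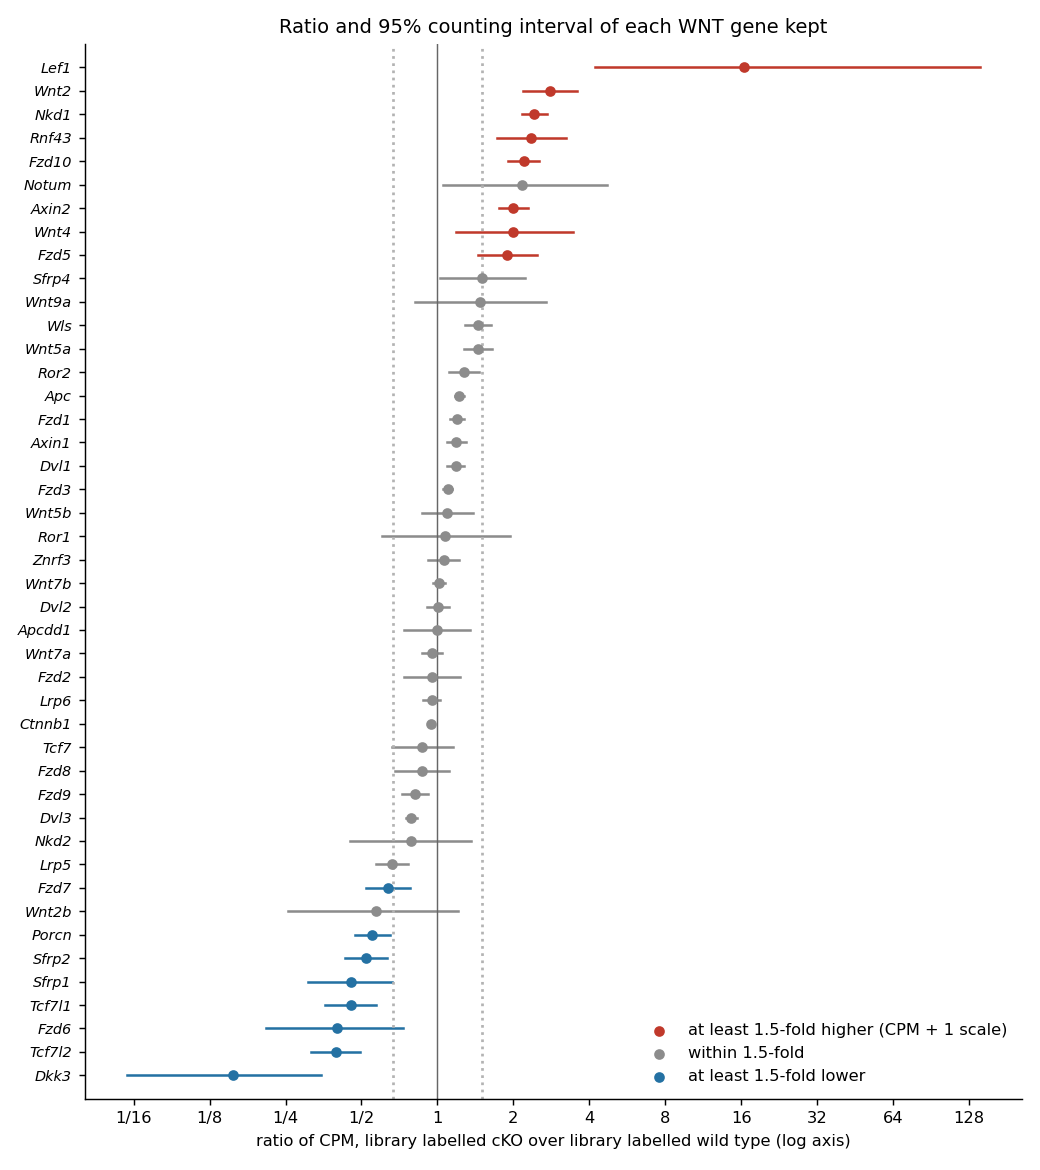
Ratio of CPM, cKO-labelled library over wild-type-labelled library (log axis), of each of the 44 WNT genes kept, with its 95% counting interval; the solid line marks equality and dotted lines 1.5-fold. Lef1, with 33 reads in cKO against 2 in wild type, has the widest interval, and Dkk3 lies lowest.

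The TCF/LEF factors, which bind the target genes, were, of all 7 roles, the one with the largest relative difference in summed level, 9.92 TPM in the cKO-labelled library against 18.1 TPM in the wild-type-labelled library. Tcf7l1 (chromosome 6, 72626371 to 72789045), which acts mainly as a repressor, had 110 reads in cKO against 242 in wild type (3.72 TPM in cKO against 8.2 in wild type) and was 2.21-fold lower (1.76 to 2.79). Tcf7l2 (chromosome 19, 55741797 to 55933659), which is also used in the maturation of oligodendrocytes, had 111 reads in cKO against 279 in wild type (2.64 TPM in cKO against 6.65 in wild type) and was 2.52-fold lower (2.02 to 3.17), while the oligodendrocyte lineage markers given above summed to 87.0 TPM in cKO against 737 in wild type. Tcf7, mostly an activator, had 99 reads in cKO against 113 in wild type and an interval that includes 1 (1.15-fold lower, 0.867 to 1.52). It shares a stretch of its locus with the abundant gene Skp1, so its reads may not be fully separable.

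Lef1 (chromosome 3, 131110297 to 131224357), an activator and itself a target of the pathway, had 33 reads (0.87 TPM) in the cKO-labelled library against 2 reads (0.09 TPM) in the wild-type-labelled library. By CPM the ratio was 16.4 (4.204 to 141.4), and by deposited TPM it was 9.67. The 2 reads in wild type lie under the floor of 3 reads, so the size of this ratio is uncertain. Lef1 passed the filter through the cKO-labelled library alone (1.74 CPM in cKO against 0.11 in wild type), and it left the count with deposited TPM and with a filter of 5 CPM. Lef1 and Tcf7 together made up 35.9% of the TCF/LEF TPM in the cKO-labelled library against 18.1% in the wild-type-labelled library, while Tcf7l1 and Tcf7l2 made up 64.1% in cKO and 81.9% in wild type. In TPM, Lef1 and Tcf7 summed to 3.56 in cKO against 3.28 in wild type, and Tcf7l1 and Tcf7l2 to 6.36 in cKO against 14.85 in wild type, so most of the shift in shares lay in the lower level of Tcf7l1 and Tcf7l2. Tcf7l1 was the most abundant factor in both libraries, and Tcf7l2, next after it in the wild-type-labelled library, lay at about the level of Tcf7 in the cKO-labelled library.

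Genes of the pathway outside the set were read from lists of components and targets. Of 57 further components kept, 2 were higher and 10 lower in the cKO-labelled library, with a median log2 difference of -0.04 and beside the 4.22% and 10.2% of all genes kept. Outside the cell and at the membrane 0 of 12 were higher and 3 lower. These were the decoy gene Frzb (37 reads in cKO against 95 in wild type, 2.58-fold lower, 1.75 to 3.88), the secreted inhibitor gene Draxin (252 reads in cKO against 516 in wild type, 2.06-fold lower, 1.76 to 2.399) and the X-linked proteoglycan gene Gpc3 (19 reads in cKO against 44 in wild type). The R-spondin receptor gene Lgr4 had 247 reads in cKO against 248 in wild type and Lgr5, also a target, 89 in cKO against 66 in wild type.

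Of 24 cytoplasmic components 0 were higher and 3 lower, beside 4.22% and 10.2% of all genes kept. Invs, which encodes inversin, had 227 reads in cKO against 547 in wild type (2.42-fold lower, 2.07 to 2.84). Cxxc4, an inhibitor that binds Dishevelled, had 173 reads in cKO against 388 in wild type (2.25-fold lower, 1.88 to 2.71), and the formin gene Daam2 had 106 reads in cKO against 214 in wild type. The kinases and the ubiquitin ligase adaptors that mark beta-catenin for destruction were nearly level, as in Gsk3b (3723 reads in cKO against 3801 in wild type), Csnk1a1 (8063 reads in cKO against 7722 in wild type) and Btrc (1147 reads in cKO against 1242 in wild type). Of 9 planar polarity genes 0 were higher and 2 lower, beside the same shares of all genes kept. The lower ones were the scarce cadherin-type receptor genes Celsr3 (69 reads in cKO against 124 in wild type) and Celsr1 (43 reads in cKO against 76 in wild type).

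In the nucleus 2 of 12 components were higher and 2 lower. Tle6, of the Groucho co-repressor family, had 596 reads in cKO against 279 in wild type (33.4 TPM in cKO against 15.6 in wild type), 2.13-fold higher (1.84 to 2.46), and Sox7, which can dampen beta-catenin activity, 91 reads in cKO against 27 in wild type, 3.36-fold higher (2.16 to 5.37). The co-activator gene Pygo1 had 429 reads in cKO against 700 in wild type (1.64-fold lower, 1.45 to 1.85) and the kinase gene Hipk2 2411 in cKO against 3627 in wild type (1.51-fold lower, 1.43 to 1.59). Among 22 textbook targets kept outside the set, 4 were higher and 1 lower, with a median log2 difference of 0.23. Over all genes kept, 4.22% were higher and 10.2% lower by the same measure. The growth factor receptor gene Met had 521 reads in cKO against 186 in wild type (2.79-fold higher, 2.36 to 3.32), the AP-1 gene Fosl1 311 in cKO against 132 in wild type, the urokinase receptor gene Plaur 197 in cKO against 81 in wild type (2.42-fold higher, 1.86 to 3.18) and the adhesion receptor gene Cd44 6869 in cKO against 4247 in wild type (1.61-fold higher, 1.55 to 1.67). Sox9, which is also a glial factor, had 2725 reads in cKO against 4512 in wild type (1.66-fold lower, 1.58 to 1.74). Within 1.5-fold, Ccnd1 had 41947 reads in cKO against 30357 in wild type (1.38-fold higher, 1.36 to 1.397). Nrcam, also within the limit, had 1847 reads in cKO against 2647 in wild type (1.44-fold lower, 1.36 to 1.53). Myc had 2577 reads in cKO against 2588 in wild type and Tnfrsf19 1777 in cKO against 1692 in wild type. The target gene Sp5, below the filter, had 12 in cKO against 9 in wild type. Each of these targets answers to other pathways as well.

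**Figure D5:**
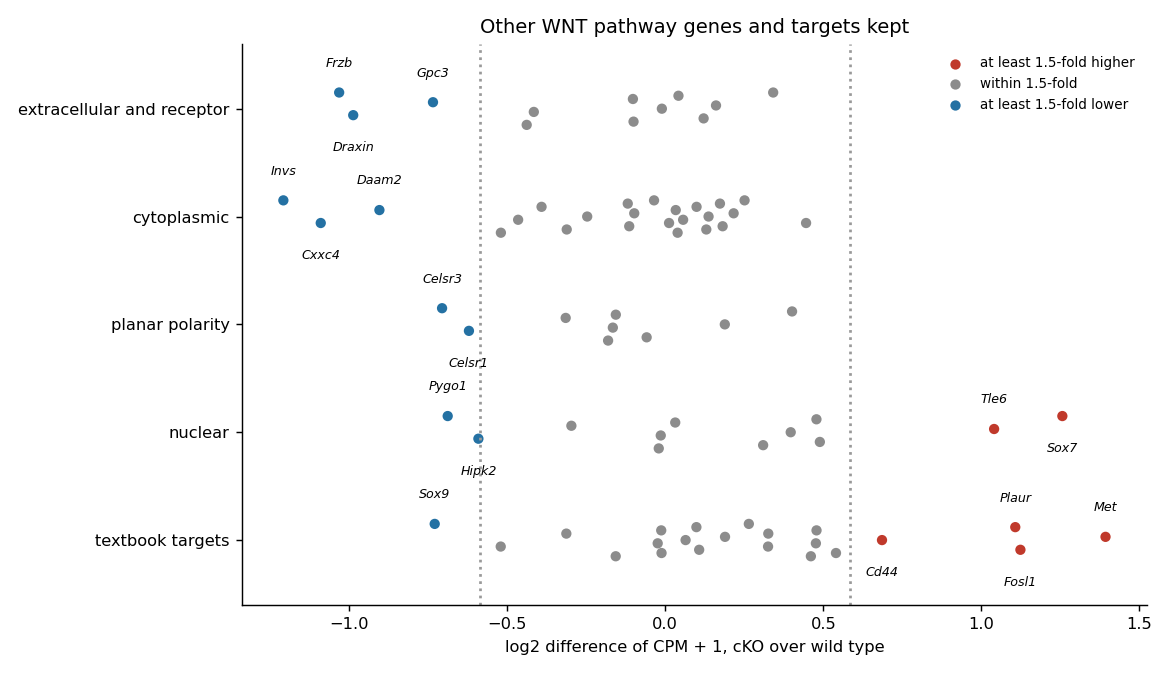
Log2 difference of CPM + 1, cKO-labelled library over wild-type-labelled library, of further WNT pathway components and textbook targets kept, by list; each point is a gene and dotted lines mark 1.5-fold. Named points lie beyond 1.5-fold, mostly on the lower side for components and on the higher side for targets. Over all genes kept, 4.22% were higher and 10.2% lower at that limit.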

How the data were processed

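RNA of 2 libraries was analysed, 1 labelled Hikeshi cKO and 1 labelled wild type, matched to the table's columns by the genotype in the column names. The authors deposited an estimated count of reads per gene, which was rounded to whole reads here. They also deposited TPM and FPKM values, per the file headers, and a signal, the normalized read count of the file headers. FPKM and that signal were not used further. Per the submitters' processing notes, reads were placed on build GRCm38.p6. The sources used here do not name the aligner, counter, annotation or strand setting.

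CPM was the rounded count over the column total. A gene was kept at 1 CPM in at least 1 library, and differences were log2 ratios after adding 1 CPM. No p-value was possible. Intervals (95%, Clopper-Pearson) and the floor of 3 reads cover counting error only. The calculation was tested on simulated counts with counting error only, for genes at a mean of 5 CPM or more and changes larger than 1.5-fold. That test does not cover scarcer genes, differences near 1.5-fold or the spread between replicates. TMM factors came from edgeR 4.0.16 and the rest from Python 3.11.15 with scipy 1.17.1. Coordinates were matched by Entrez number to RefSeq for 52 of 52 genes.

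The genes, lists and thresholds were chosen with earlier results of these data known. Every gene of the set could be named. Of the other lists, genes at least 1.5-fold apart were named by the size of the difference (up to 4 per list and direction). The genes within 1.5-fold or below the filter given beside them (such as Lgr4, Lgr5, Gsk3b, Csnk1a1, Btrc, Ccnd1, Nrcam, Myc, Tnfrsf19 and Sp5) were chosen after their values were seen. The promoters shown were also chosen after the values were seen.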

Additional observations from a re-analysis of the deposited data

How the results depend on the processing

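The direction of all 16 WNT genes called was the same under TMM scaling, median-of-ratios scaling, deposited TPM, unrounded counts, 0.5 or 2 CPM added in place of 1 CPM, and filters of 0 or 5 CPM, wherever the gene was kept. With deposited TPM (1 TPM added, 1 TPM as filter) 5 WNT genes were higher and 6 lower, since Wnt4, Fzd5 and Lef1 (higher) and Fzd6 and Fzd7 (lower) left the count. With a filter of 5 CPM 6 were higher and 5 lower, since Wnt4, Lef1, Fzd6, Sfrp1 and Dkk3 were not kept. A limit of 2-fold on the same scale left 5 WNT genes higher and 3 lower, beside 1.25% and 3.85% of all genes kept, and of the other pathway genes 5 higher and 3 lower, against 6 and 11 at 1.5-fold. Fzd7 fell short of 1.5-fold under both scalings and with 2 CPM added, which also took out Wnt4 and Fzd6. Adding 0.5 CPM brought in Notum and using no filter brought in Wnt9b. The median of the WNT genes ranged from 0.03 to 0.06. No paired analysis was possible because each genotype has 1 library, and for the same reason no library could be left out. Below about 50 reads, as in Lef1, Wnt4, Fzd6 and Dkk3, depth limits the size of a fold.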
